A study of Mus musculus with 8 samples.

Results

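The genes described here encode the proteins that hold neighbouring cells together in the tooth germ: the cadherins of adherens junctions, the cadherins and plaque proteins of desmosomes, and the nectins. They were taken by gene symbol, as every Cdh, Dsc, Dsg, Pkp and Nectin gene followed by a number, with Dsp, Jup and Perp added. This gave 43 of the 43629 genes counted: 23 cadherins, 9 desmosomal cadherins, 7 plaque or membrane proteins of the desmosome and 4 nectins. RNA was sequenced from lower first molars of mouse embryos at E18.5, the left and right tooth of an embryo pooled into 1 sample. All 8 embryos carried Jagged1 alleles flanked by loxP sites on both copies (Jagged1 fl/fl). The 4 control embryos (J3, J5, J6 and J7) had no other modification named and are called WT in the study's text, and the 4 mutant embryos (K14J26, K14J28, K14J29 and K14J30) also carried K14:cre. This transgene expresses Cre from the promoter of keratin 14, a gene of basal epithelial cells, so that the Notch ligand Jagged1 is deleted in the epithelium, whereas the whole molar also holds mesenchyme, vessels and nerves. The embryos were littermates, but litter and sex were not stated for each one.

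Cadherins are calcium-dependent adhesion molecules that bind the same or a similar cadherin on the next cell. In adherens junctions, classical cadherins such as E-cadherin (Cdh1) and P-cadherin (Cdh3) connect through catenins to actin, and nectins help to assemble these junctions. In desmosomes, desmogleins and desmocollins connect through plakoglobin (Jup), plakophilins and desmoplakin (Dsp) to keratin filaments, and Perp is a membrane protein needed for desmosomes in stratified epithelia. In the developing tooth, the epithelium that forms enamel is an organ of polarized, tightly joined cells, and its ameloblasts change their junctions as they begin to secrete enamel matrix.

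Library totals ranged from 17327224 to 29792467 counts, and 3 counts correspond to between 0.0998 and 0.166 CPM, the unit used here for counts scaled to a common library size. Jag1 had 95.2, 103, 104 and 99.8 CPM in the control embryos and 34.0, 38.9, 45.9 and 57.1 CPM in the mutant embryos, a log2 fold change of -1.19 (edgeR quasi-likelihood test, adjusted p = 0.00517). The mutant embryos differed among themselves in enamel transcripts. The enamel score, a mean log2 CPM over 5 enamel genes, was 4.73 to 6.87 in the controls. In the mutants, K14J26 reached 11.78, followed by 9.79 for K14J29, 8.17 for K14J30 and 6.94 for K14J28. K14J28 also stood apart in keratins and envelope genes of suprabasal epithelium, which summed to 912 CPM there, 41.0 to 209 CPM in the controls and 49.2 to 114 CPM in the other mutants, and in macrophage and osteoclast genes (1400 CPM against at most 476 CPM elsewhere). Of the macrophage and osteoclast genes, Ctsk (806 CPM) and Acp5 (454 CPM) made up most of the sum in K14J28. Csf1r and Cd68 were also highest in K14J28, whereas Adgre1 (4.79 CPM) lay within its control range of 4.37 to 7.26 CPM. The control embryos J6 and J7 held 395 and 200 CPM of skeletal muscle genes, against at most 19.6 CPM in any other embryo. The mean log2 CPM of the epithelial markers was 6.23 to 6.59 in the controls and 6.20 to 6.66 in the mutants. Its members did not move as one: Krt14 and Sfn were higher in the mutants, and the other 7 of 9 did not pass the edgeR test. Among these, Epcam had 218 to 255 CPM in the controls and 113 to 194 CPM in the mutants (log2 fold change -0.51, edgeR adjusted p = 0.0527), and Cldn4 and Cldn7 had log2 fold changes of -0.59 and -1.24 (edgeR adjusted p = 0.123 and 0.0839). In whole molars, fewer cells of a type and less RNA per cell cannot be told apart.

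Of the 43 genes, 37 passed the filter of at least 10 counts in at least 2 embryos of a group. The other 6 were Cdh7, Cdh8, Cdh9, Cdh16, Cdh26 and Dsg4, none with more than 16 counts in any embryo. Cdh9 had 1 count in all 8 embryos together, and Dsg4, a desmoglein of the hair follicle, had no more than 1 count in any embryo. Cdh8, a type II cadherin best known in neurons, had 9, 9, 6 and 16 counts in the controls and 3, 5, 3 and 6 in the mutants. These genes were not tested in the main fit. In edgeR without the count filter, Cdh8 had a log2 fold change of -1.395 (edgeR adjusted p = 0.0635).

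The levels in the controls were set by length, as CPM per kb of exon. Among the cadherins, Cdh1 ranked highest with 91.7 ± 10.9 CPM per kb (SD, n = 4), followed by Cdh3 with 49.7 ± 3.18 and Cdh11, a cadherin of mesenchymal cells, with 41.4 ± 4.12. The ranges of Cdh3 and Cdh11 overlapped, and that of Cdh1 lay above both. Vascular endothelial cadherin (Cdh5) had 18.8 ± 1.28 CPM per kb and N-cadherin (Cdh2) 8.34 ± 1.41, and the other 13 tested cadherins lay between 0.0915 and 3.65. Dsc3 led the desmosomal cadherins with 138 ± 6.37 CPM per kb, above Dsg2 (38.4 ± 1.12) and Dsc2 (35.6 ± 1.38), whose ranges overlapped. Perp had the highest level of the 37 genes, 359 ± 32.1 CPM per kb, followed among the plaque and membrane proteins by Dsp (85.1 ± 7.07) and Pkp1 (58.4 ± 2.88), while Pkp2 had 0.0865 ± 0.0187. Nectin4 had 53.1 ± 3.08 CPM per kb, above Nectin1 (15.6) and Nectin3 (14.4), whose ranges overlapped, and Nectin2 (10.4 ± 1.09).

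**Figure D1:**
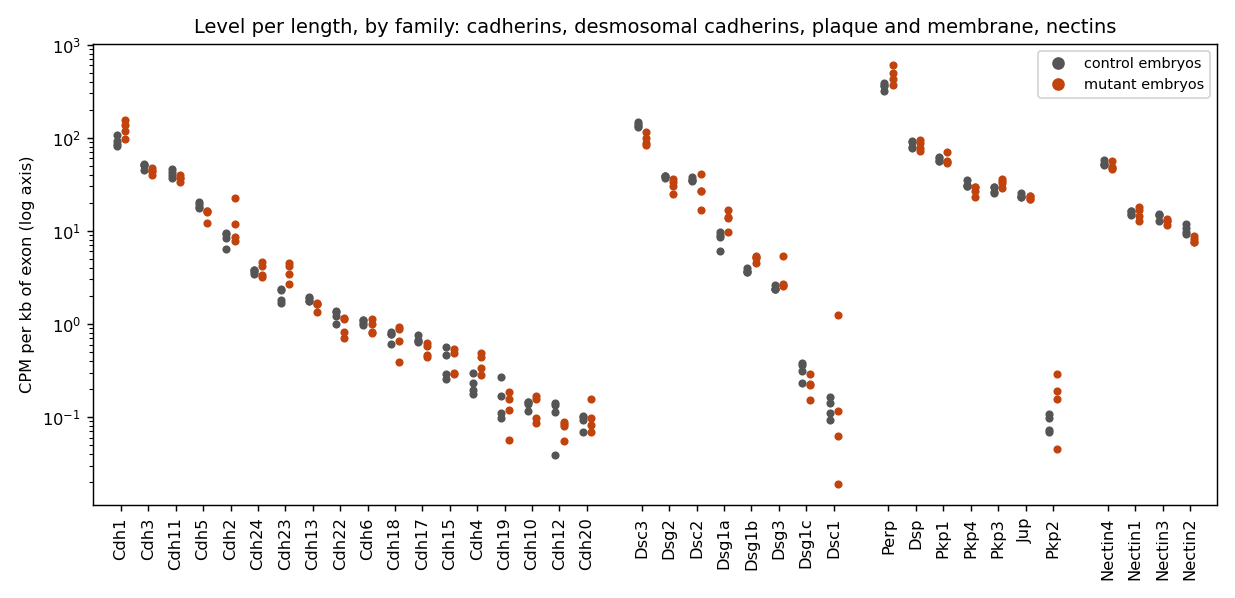
CPM per kb of exon, on a log axis, of the 37 tested genes in each control embryo (grey) and each mutant embryo (red), ordered within each family by the control mean. Perp, Dsc3 and Cdh1 lie highest in their families, with control means of 359, 138 and 91.7 CPM per kb, and the mutant values of Dsc1 and Pkp2 spread widely at low levels.

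The comparison of mutant with control molars asked which transcripts change when Jagged1 is deleted from the dental epithelium. The genes that changed were 1 cadherin, 3 desmosomal cadherins and 1 nectin. At an adjusted p under 0.05, 3 genes were higher in the mutants (Cdh23, Dsg1a and Dsg1b) and 2 were lower (Dsc3 and Nectin2). The higher calls were 8.11% of the 37 genes, against 9.52% of all 17129 genes tested, and the lower calls 5.41%, against 6.61%, so that the share of these genes called was close to that of the whole transcriptome. With 1 embryo left out, the calls among them ranged from 0 (without K14J29) to 12 (without K14J28). Leaving out J3 or J7 left Dsg1b as the only call. Of all genes, 250 were higher and 170 lower without K14J29, and 2479 and 1845 without K14J28. The counts of all genes were 373 and 287 without J3, and 300 and 236 without J7. With the skeletal muscle score as a covariate 0 were called, with 47 of all genes higher and 47 lower. Without both J6 and J7, 0 were called, with 3 of all genes higher and 4 lower. In both fits the log2 fold changes of the 5 genes stayed close to those of the main fit. By the criteria of the study, read here as p of no more than 0.05 before adjustment together with a log2 fold change of 0.5 or more in size (its text names neither the adjustment nor the scale), Cdh23, Cdh4 and Dsg1a were higher (8.11%, against 8.33% of all genes) and Dsc3 was lower (2.70%, against 5.85%). The 4 control and 4 mutant values lay apart in 9 genes. Of these, 2 were higher in the mutants (5.41%, against 12.6% of all genes) and 7 were lower (18.9%, against 11.6%). The median log2 fold change was -0.09 over the 37 genes and 0.01 over all genes tested.

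**Figure D2:**
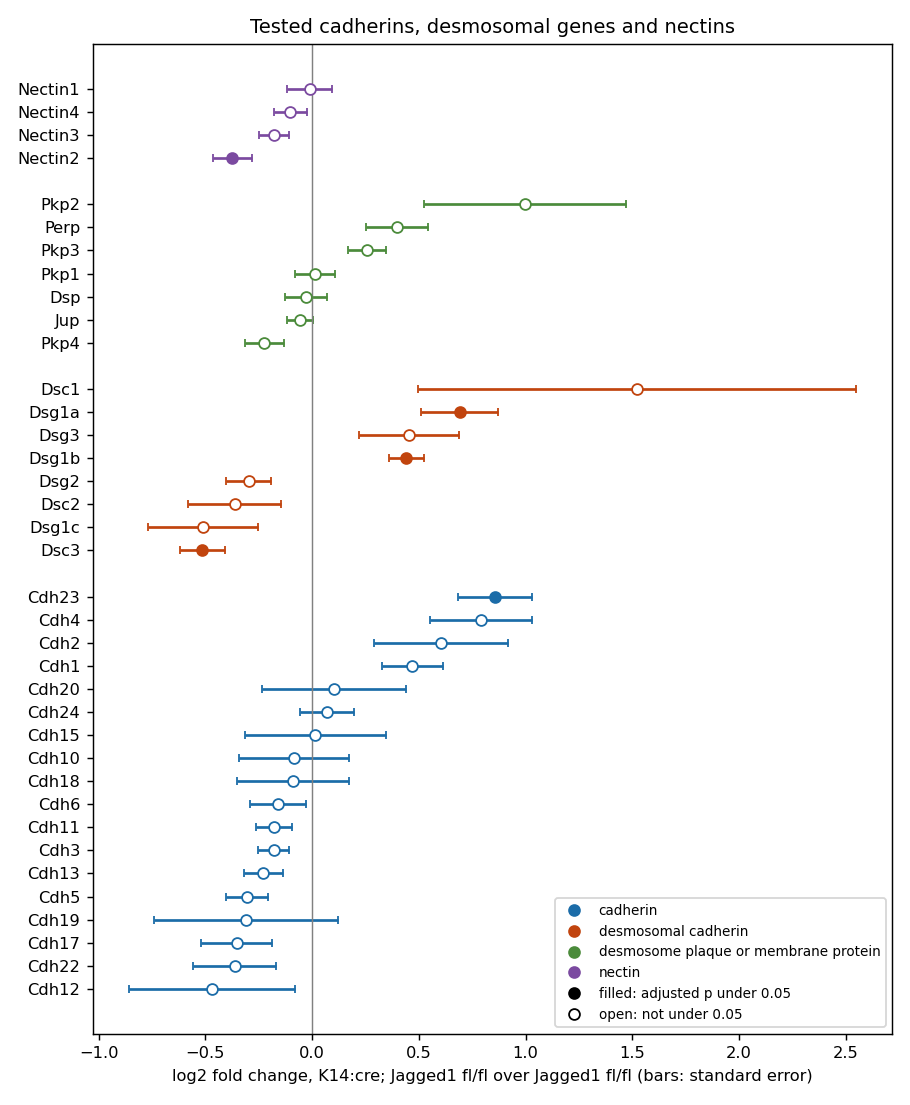
Log2 fold change, mutant over control, of the 37 tested genes by family (n = 4 and 4 embryos), with bars for the standard error of the edgeR fit and filled points for an adjusted p under 0.05. Filled points stand at 0.86 (Cdh23), 0.69 (Dsg1a) and 0.44 (Dsg1b) above 0 and at -0.51 (Dsc3) and -0.37 (Nectin2) below it, and the widest bar is that of Dsc1.

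Cdh23 was the 1 cadherin that edgeR called. Cadherin 23 (ENSMUSG00000012819, chr10:60302748-60696490, minus strand, GRCm38) is a long atypical cadherin known for the tip links of hair cells in the inner ear. It had 30.2, 39.2, 40.1 and 28.3 CPM in the controls and 75.6, 45.5, 70.3 and 58.6 CPM in the mutants. The groups did not overlap, and K14J28 lay closest to the controls. This gave a log2 fold change of 0.86 ± 0.17 (SE; edgeR quasi-likelihood test, adjusted p = 0.0172), or 1.81-fold. The adjusted p was 0.0561, 0.0572 and 0.0593 without J3, J7 or K14J29, respectively. With the enamel score as a covariate, the log2 fold change was 0.27 (edgeR adjusted p = 0.228).

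The promoter of Cdh23 is given because this gene had the largest change among the genes called. The window below runs from 250 bases before to 50 after the RefSeq start (GRCm38.p6, chr10:60696441-60696740, minus strand). It was searched on both strands for TGGGAA, the core bound by the Notch effector RBPJ, and CAGGTG, an E-box bound by Snail and Zeb factors. The search strings can overlap by the letters TG. Neither string occurs in this window, so it has no capitals.
Cdh23: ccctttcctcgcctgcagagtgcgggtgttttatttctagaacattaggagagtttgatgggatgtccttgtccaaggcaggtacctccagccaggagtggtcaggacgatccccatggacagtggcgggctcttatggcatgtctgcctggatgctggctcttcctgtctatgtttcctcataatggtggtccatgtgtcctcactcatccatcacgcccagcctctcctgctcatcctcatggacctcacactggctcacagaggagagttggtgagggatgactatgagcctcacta

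Cdh4 and Cdh1 had higher values in most mutants without an adjusted p under 0.05 in the edgeR test, although DESeq2 called both (adjusted p = 0.0233 and 0.0173). Cdh4, or R-cadherin (ENSMUSG00000000305, chr2:179442431-179899373), had 1.66, 1.40, 2.13 and 1.28 CPM in the controls and 3.51, 2.03, 3.19 and 2.44 CPM in the mutants. K14J28 lay below the control J6, and the other 3 mutants lay above every control. Its log2 fold change was 0.79 ± 0.24 (SE; edgeR adjusted p = 0.0524), and the adjusted p was 0.0228 without K14J28. Cdh1, the E-cadherin that marks epithelia (ENSMUSG00000000303, chr8:106603351-106670246, plus strand), had 376, 420, 489 and 393 CPM in the controls and 715, 439, 624 and 546 CPM in the mutants. Again K14J28 alone fell within the control range. The log2 fold change was 0.47 ± 0.15 (SE; edgeR adjusted p = 0.0546), with an adjusted p of 0.0102 without K14J28. In edgeR without the count filter the adjusted p of Cdh1 was 0.0472, and with Xist as a covariate it was 0.044. With the enamel score as a covariate the log2 fold change of Cdh1 was -0.05 (edgeR adjusted p = 0.804).

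Cdh3, the P-cadherin gene of basal epithelial cells, lies 46053 bases from Cdh1 on the same strand of chromosome 8. It had 221, 225, 197 and 228 CPM in the controls and 208, 191, 176 and 193 CPM in the mutants. The groups overlapped, with J6 lowest among the controls, and the log2 fold change was -0.18 ± 0.07 (SE; edgeR adjusted p = 0.109). The ratio of Cdh1 to Cdh3, per length, was 1.63, 1.79, 2.38 and 1.65 in the controls and 3.29, 2.21, 3.39 and 2.72 in the mutants. Thus the ratio was higher in 3 mutants than in any control, and K14J28 lay below J6.

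The remaining cadherins did not pass the edgeR test, and DESeq2 called 1 of them, Cdh5, lower. N-cadherin (Cdh2), which marks neural and many mesenchymal cells, had 51.2, 67.2, 75.7 and 75.0 CPM in the controls and 184, 63.3, 94.6 and 68.5 CPM in the mutants. A single embryo, K14J26, was far above the rest, and the log2 fold change of 0.61 ± 0.31 (SE; edgeR adjusted p = 0.202) was 0.17 without it. Vascular Cdh5 had 73.5, 75.6, 80.7 and 85.5 CPM in the controls and 68.0, 66.9, 68.7 and 51.5 CPM in the mutants. The groups did not overlap, and the log2 fold change was -0.31 ± 0.10 (SE; edgeR adjusted p = 0.0642). For Cdh5 the adjusted p was 0.0364 with DESeq2, and 0.0374 and 0.0349 in edgeR with upper-quartile scaling and with library size only. Beside it, the 7 endothelial markers summed to 266 to 294 CPM in the controls and 222 to 266 CPM in the mutants, and Tie1 was the only one of them that passed the edgeR test (lower). The part of the vessels in the value of Cdh5 was not tested. Cdh13, or T-cadherin, and Cdh17, an intestinal cadherin, were also lower in all 4 mutants than in any control, with log2 fold changes of -0.23 and -0.35 (edgeR adjusted p = 0.109 and 0.164). The log2 fold change of mesenchymal Cdh11 was -0.18 (edgeR adjusted p = 0.164). The other 9 tested cadherins had log2 fold changes between -0.47 (Cdh12) and 0.10 (Cdh20), with edgeR adjusted p of 0.214 or more.

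**Figure D3:**
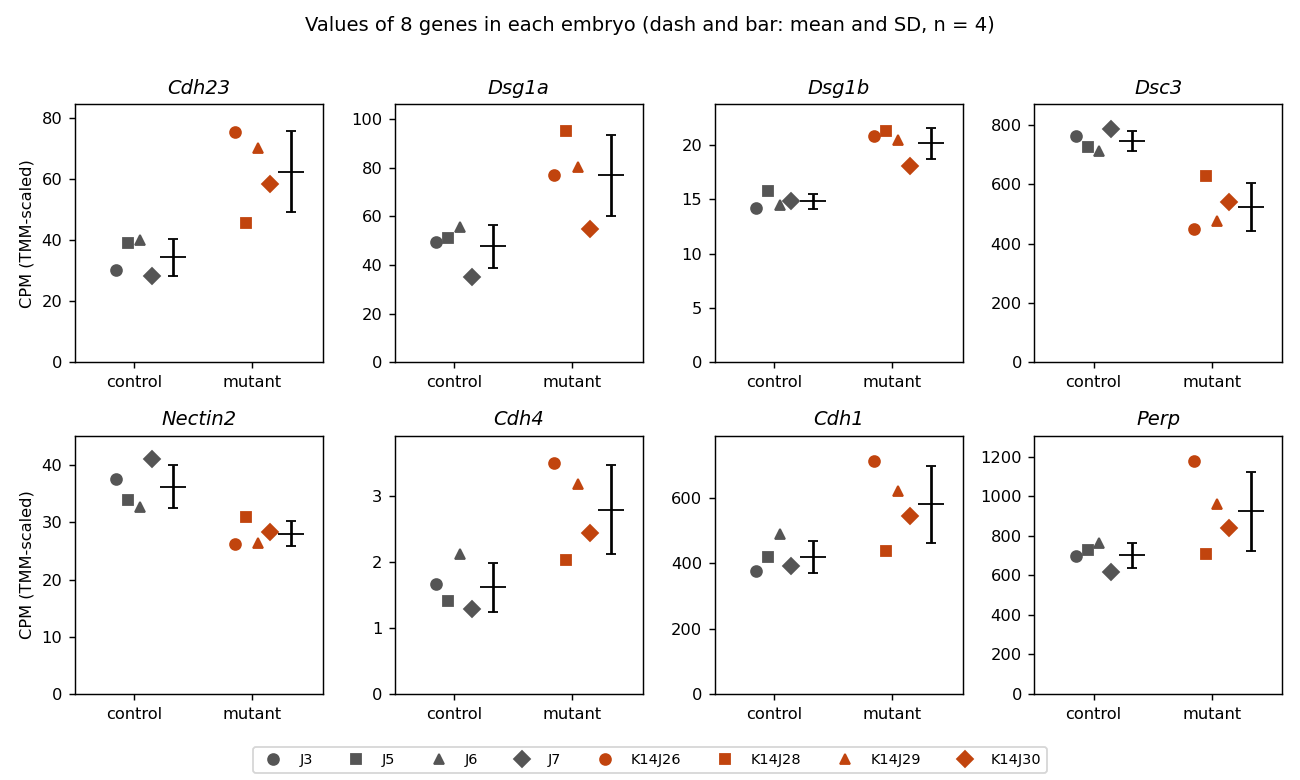
CPM of 8 genes in each of the 4 control embryos (grey) and 4 mutant embryos (red), with the mean and SD beside the points and each axis starting at 0. The groups are apart for Cdh23, Dsg1b, Dsc3 and Nectin2, and K14J28 (square) falls among the controls for Cdh4, Cdh1 and Perp.

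Of 8 tested desmosomal cadherins, edgeR called 2 higher (Dsg1a and Dsg1b) and 1 lower (Dsc3), or 37.5%, against 16.1% of all genes. Dsc3, or desmocollin 3 (ENSMUSG00000059898, chr18:19960930-20002351, minus strand), is a desmocollin of basal epithelial layers and the most abundant desmosomal cadherin in these molars. It had 762, 725, 712 and 787 CPM in the controls and 448, 628, 475 and 540 CPM in the mutants. Every mutant lay below every control, with K14J28 nearest to them. A log2 fold change of -0.51 ± 0.10 was found (SE; edgeR adjusted p = 0.0172), or 0.700-fold. The adjusted p was 0.0540, 0.0581 and 0.0600 without J3, J7 or K14J29, respectively. With the enamel score as a covariate it was -0.20 (edgeR adjusted p = 0.192).

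Dsg1a and Dsg1b rose. Desmoglein 1, which is known for the upper layers of stratified epithelia, is encoded in the mouse by Dsg1a, Dsg1b and Dsg1c. Dsg1a (ENSMUSG00000069441, chr18:20310811-20343350, plus strand) had 49.3, 50.9, 55.4 and 34.9 CPM in the controls and 77.1, 95.1, 80.1 and 55.0 CPM in the mutants. The groups overlapped, since K14J30 was just below J6, and the log2 fold change was 0.69 ± 0.18 (SE, edgeR adjusted p = 0.0342). Without J3, J5, J7 or K14J29 the adjusted p of Dsg1a was 0.0822, 0.0757, 0.0846 and 0.0901. Dsg1b (ENSMUSG00000061928, chr18:20376729-20410196, plus strand) had 14.2, 15.8, 14.5 and 14.8 CPM in the controls and 20.9, 21.3, 20.4 and 18.03 CPM in the mutants. These groups did not overlap, the log2 fold change was 0.44 ± 0.08 (SE; edgeR adjusted p = 0.0142), and the adjusted p was 0.0528 without K14J29. Scaling by library size only gave adjusted p of 0.0682 for Dsg1a and 0.0572 for Dsg1b, and with Xist as a covariate the log2 fold change of Dsg1a was 0.48 (edgeR adjusted p = 0.145). Dsg1c had at most 1.56 CPM, with a log2 fold change of -0.51 ± 0.26 (SE; edgeR adjusted p = 0.191).

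The 3 desmoglein 1 genes are close copies, and reads may be split between them. Of all stretches of 120 bases in their exons, 21.6% for Dsg1a, 28.7% for Dsg1b and 9.83% for Dsg1c occur unchanged in another copy, and how reads with several matches were counted is not stated. No other gene of these families shares such a stretch with another one. The sum of the 3 copies does not depend on how counted reads were divided among them, although reads left out would be missing from it. This sum was 64.8, 68.2, 71.5 and 50.6 CPM in the controls and 98.5, 117, 102 and 73.9 CPM in the mutants, without overlap.

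Dsg3 and Dsc1 were high in a single mutant. Dsg3, the desmoglein of basal layers and oral mucosa, had 16.5, 16.5, 18.1 and 16.4 CPM in the controls and 17.6, 37.5, 18.9 and 18.1 CPM in the mutants. Dsc1, a desmocollin of the upper epidermis, had 10, 20, 9 and 21 counts in the controls and 2, 190, 9 and 15 counts in the mutants. Both high values were those of K14J28, the embryo with 912 CPM of suprabasal genes. The log2 fold change was 0.45 for Dsg3 and 1.52 for Dsc1 (edgeR adjusted p = 0.200 and 0.317), and without K14J28 it was 0.11 and -0.92. Dsg1a was also highest in K14J28, at 95.1 CPM, and its log2 fold change without that embryo was 0.57 (edgeR adjusted p = 0.0433). Among the 9 suprabasal genes, Krt4 (251.4 CPM), Krt13 (397 CPM) and Krt6a (221 CPM) made up most of the sum in K14J28. Krt10 had 11.04 CPM there, within its control range of 7.99 to 13.7 CPM, and Flg and Ivl were at or near 0 in every embryo. The part of suprabasal cells in these values was not tested.

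Dsg2 and Dsc2, the widely expressed pair that is found in simple as well as stratified epithelia, had lower values in most mutants. Dsg2 had 322, 320, 304 and 324 CPM in the controls and 207, 298, 249 and 278 CPM in the mutants. The groups did not overlap, and the log2 fold change was -0.30 ± 0.10 (SE; edgeR adjusted p = 0.0766), or -0.38 without K14J28 (edgeR adjusted p = 0.0248). DESeq2 called Dsg2 lower (adjusted p = 0.043). Dsc2 had 198, 185, 187 and 181 CPM in the controls and 87.4, 217, 140 and 140 CPM in the mutants. K14J28 was above every control, and the other mutants were below them all. The log2 fold change of Dsc2 was -0.36 ± 0.22 (SE; edgeR adjusted p = 0.265), and without K14J28 it was -0.62 (edgeR adjusted p = 0.0223).

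The make-up of the desmosomal cadherins was compared per length. Dsc3 gave 60.8 ± 1.43% of their summed CPM per kb in the controls and 54.5 ± 2.36% in the mutants (SD, n = 4). The share of Dsg1a was 3.70 ± 0.757% in the controls and 7.67 ± 1.65% in the mutants. The share of Dsg2, in contrast, was 16.9 ± 0.284% and 17.6 ± 1.18%. These shares sum to a fixed total, so that they do not vary independently, and they were not tested.

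All 9 desmosomal cadherins lie in 1 cluster of 643592 bases on chromosome 18 (chr18:19960930-20604521), with the 3 desmocollins on the minus strand and the 6 desmogleins on the plus strand. The cluster held calls in both directions. Dsc3 at one end fell, Dsg1a and Dsg1b, neighbours in the middle, rose, and Dsg2 at the other end had a log2 fold change of -0.30. Dsg3 and Dsg2, which are 10614 bases apart, had log2 fold changes of 0.45 and -0.30. Neither passed the edgeR test, and DESeq2 called Dsg2 lower (adjusted p = 0.043).

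**Figure D4:**
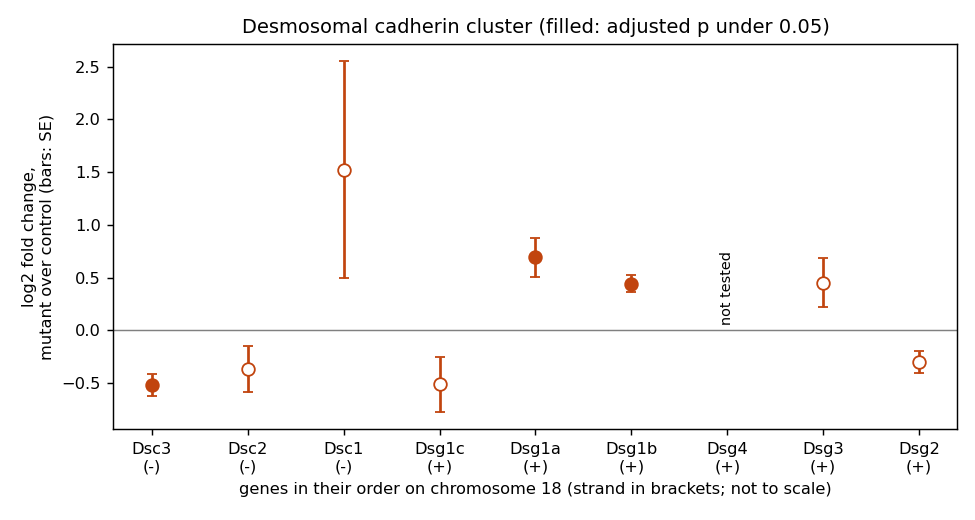
Log2 fold change, mutant over control, with its standard error for the genes of the desmosomal cadherin cluster, in their order on chromosome 18 with the strand in brackets. The 3 filled points (adjusted p under 0.05) are Dsc3 at -0.51, Dsg1a at 0.69 and Dsg1b at 0.44, and Dsg4 was not tested.

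None of the 7 plaque and membrane proteins of the desmosome passed the test: edgeR called 0 at an adjusted p under 0.05, 3 had an unadjusted p under it (Perp, Pkp3 and Pkp4), and DESeq2 called 1 (Perp). Of all 17129 genes, 3275 were higher and 2696 lower at that unadjusted p, and DESeq2 called 2244 higher and 1718 lower. The log2 fold change was -0.03 ± 0.10 for Dsp, which anchors keratin, -0.06 ± 0.06 for Jup, the plakoglobin of the plaque, and 0.01 ± 0.09 for Pkp1, a plakophilin of stratified epithelia (SE; edgeR adjusted p = 0.856, 0.546 and 0.940). Dsp had 757 to 890 CPM in the controls and 702 to 915 CPM in the mutants. Perp had 700, 726, 763 and 615 CPM in the controls and 1181, 711, 962 and 842 CPM in the mutants. For Perp, only K14J28 lay within the control range, and the log2 fold change was 0.40 ± 0.14 (SE; edgeR adjusted p = 0.0860), or 0.50 without K14J28 (edgeR adjusted p = 0.01799). With the enamel score as a covariate, it turned to -0.11 (edgeR adjusted p = 0.497).

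The other plakophilins were spread over both directions. Pkp3, found in most desmosomes, had 106, 93.4, 107 and 91.8 CPM in the controls and 130, 104, 117 and 125 CPM in the mutants, a log2 fold change of 0.26 ± 0.09 (SE; edgeR adjusted p = 0.0725). Pkp4, which also occurs in adherens junctions, had 172, 173, 179 and 200 CPM in the controls and 131, 170, 151 and 167 CPM in the mutants. Every mutant was below every control for Pkp4, with a log2 fold change of -0.22 ± 0.09 (SE; edgeR adjusted p = 0.120). Pkp2 had 5 to 47 counts in an embryo, with a log2 fold change of 0.996 ± 0.473 (SE; edgeR adjusted p = 0.167).

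Of the nectins, immunoglobulin-like molecules that bind afadin, only Nectin2 passed the test. Nectin2 (ENSMUSG00000062300, chr7:19716644-19750483, minus strand) had 37.6, 33.9, 32.6 and 41.0 CPM in the controls and 26.2, 31.0, 26.4 and 28.4 CPM in the mutants. The groups did not overlap, with K14J28 again nearest to the controls, and the log2 fold change was -0.37 ± 0.09 (SE; edgeR adjusted p = 0.0295). The adjusted p of Nectin2 was 0.0812, 0.0577, 0.0822, 0.0882 and 0.0528 without J3, J5, J7, K14J29 or K14J30, respectively. With the enamel score as a covariate, its log2 fold change was -0.14 (edgeR adjusted p = 0.489). An antisense gene shares 135 exonic bases with Nectin2 and had 40 counts in all, against 6317 for Nectin2. The log2 fold changes of Nectin1, Nectin3 and Nectin4 were -0.01 ± 0.11, -0.18 ± 0.07 and -0.10 ± 0.08 (SE; edgeR adjusted p = 0.948, 0.112 and 0.367). Nectin4, the most abundant nectin per length, had 216, 195, 189 and 195 CPM in the controls and 209, 172, 181 and 179 CPM in the mutants.

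The promoter of Nectin2 is given because this is the other gene called outside the desmosomal cluster (RefSeq, GRCm38.p6, chr7:19749524-19749823, minus strand). It holds 1 E-box, in capitals, that begins 53 bases before the start site, and no TGGGAA on either strand.
Nectin2: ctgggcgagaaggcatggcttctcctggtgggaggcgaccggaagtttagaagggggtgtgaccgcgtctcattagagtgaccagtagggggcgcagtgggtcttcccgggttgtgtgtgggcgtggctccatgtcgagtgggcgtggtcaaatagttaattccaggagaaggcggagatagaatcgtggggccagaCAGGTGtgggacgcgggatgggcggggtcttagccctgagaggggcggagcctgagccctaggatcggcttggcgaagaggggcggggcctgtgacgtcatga

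RefSeq windows were at hand for 19 of the 43 genes, in 22 windows. TGGGAA or its reverse complement was in 9 of them (40.9%), against 25.6% of all 32851 windows, and CAGGTG or its reverse complement was in 6 (27.3%), against 20.2%. Cdh7, Pkp4 and Dsp held both. Such matches describe the letters only, and 3 of the windows belong to Cdh7 and 2 to Pkp4.

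The mutant embryos could also be ordered, since they differed so widely in enamel transcripts. This order was compared after the values had been seen, as a description. In 6 genes, Cdh1, Cdh2, Cdh4, Cdh23, Perp and Nectin4, the 4 mutants ranked as in the enamel score, with K14J26 highest and K14J28 lowest (16.2%, against 13.6% of all genes). In 8 genes, Dsc1, Dsc2, Dsc3, Dsg2, Dsp, Pkp2, Pkp4 and Nectin2, they ranked in the mirrored order (21.6%, against 12.5%). By TMM-scaled CPM, all 4 classical or atypical cadherins with either order ranked with the score. All 4 desmosomal cadherins with either order ranked against the score. The TMM factor was 0.843 for K14J26 and 0.969 to 1.04 for the other mutants. Over library totals without it, Cdh2 and Perp keep the order of the score, whereas Cdh1, Cdh4, Cdh23 and Nectin4 do not. Dsc3 had 628 CPM in K14J28 and 448 CPM in K14J26, whereas Cdh1 had 439 and 715 CPM in the same embryos. The lowest CPM of Dsc1 and Pkp2 rest on 2 and 5 counts in K14J26. K14J28, the lowest in the score, was also the embryo with the suprabasal and osteoclast transcripts, and with 4 embryos these cannot be told apart. With the enamel score as a covariate in the edgeR fit, the log2 fold change turned to -0.05 for Cdh1, -0.11 for Perp, -0.53 for Cdh2, 0.26 for Dsc2 and 0.02 for Dsg2, and none of these passed the test. It was -0.14 for Nectin2 (edgeR adjusted p = 0.489) and 0.16 for Cdh4 (edgeR adjusted p = 0.793). For Dsg1a and Dsg1b the log2 fold change was 0.63 and 0.41 (edgeR adjusted p = 0.194 and 0.105), close to the values without the covariate. The score itself lay apart between the groups, at most 6.87 in the controls and at least 6.94 in the mutants. In this fit the score and the genotype therefore cannot be told apart. Larger values were given for Dsc1 (4.02, edgeR adjusted p = 0.0343), the only one of the 37 genes called in that fit, Pkp2 (2.03, edgeR adjusted p = 0.0752) and Dsg3 (0.94, edgeR adjusted p = 0.0811). K14J28 held 190 of the 276 counts of Dsc1. Without that embryo, and without the covariate, the log2 fold change of Dsc1 was -0.92.

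**Figure D5:**
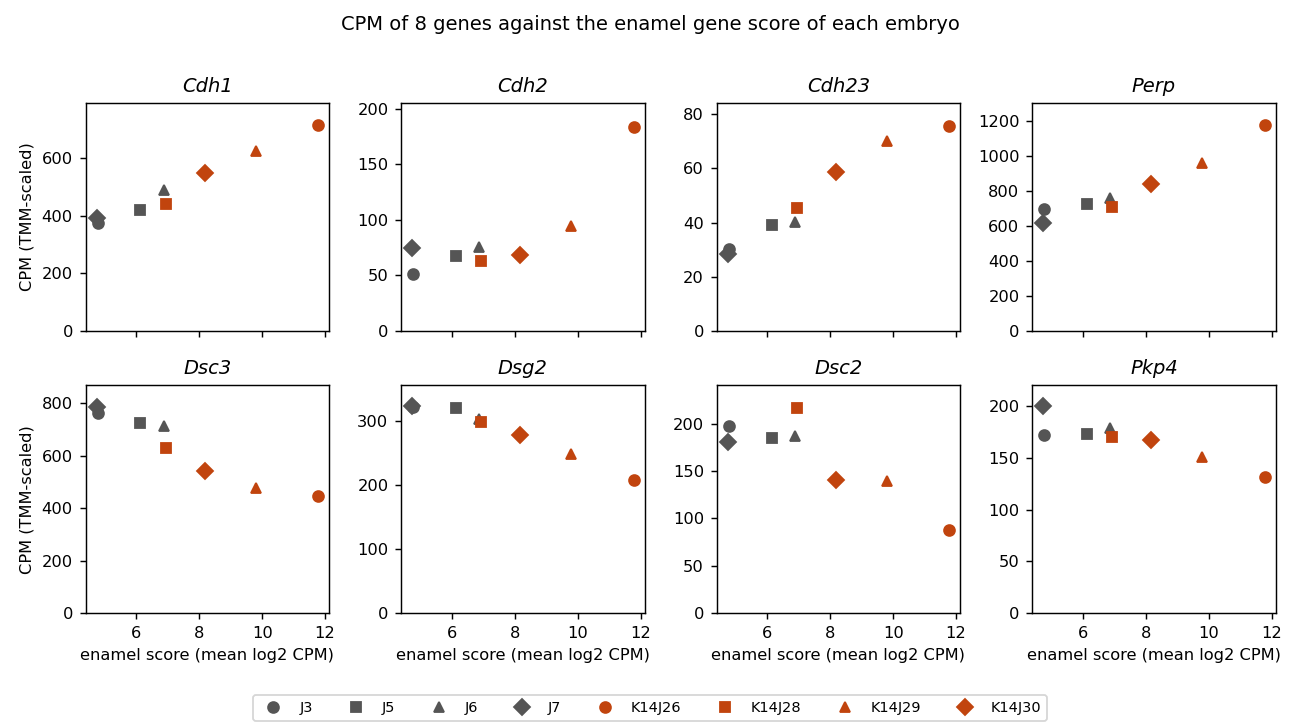
CPM of 8 genes against the enamel score (mean log2 CPM of 5 enamel genes) in each control (grey) and mutant (red) embryo, with each CPM axis starting at 0. From K14J28 at a score of 6.94 to K14J26 at 11.78, the mutant values of Cdh1, Cdh2, Cdh23 and Perp go up and those of Dsc3, Dsg2, Dsc2 and Pkp4 go down.

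The partners of these junctions were described from lists of 47 further genes, of which 43 were tested. At an adjusted p under 0.05, 2 were higher (4.65%, against 9.52% of all genes) and 7 were lower (16.3%, against 6.61%) in the mutants. Without J3, J7 or K14J29, the counts were 0 and 0, with 373, 300 and 250 of all genes higher and 287, 236 and 170 lower. Among 10 tested catenins and adaptors, 1 changed: Ctnna2, an alpha-catenin best known in neurons, had 158, 299, 350 and 133 CPM in the controls and 1450, 330, 966 and 588 CPM in the mutants. K14J28 alone overlapped the controls, and the log2 fold change was 1.83 ± 0.46 (SE; edgeR adjusted p = 0.0317). The 4 mutants ranked for Ctnna2 as in the enamel score, and with that score as a covariate the log2 fold change was 0.05 (edgeR adjusted p = 0.903). Beside it, 4 neuron markers summed to 182 to 231 CPM in the controls and 201 to 327 CPM in the mutants, with Tubb3 called higher (edgeR adjusted p = 0.0448), and the part of nerves was not tested. The epithelial alpha-catenin Ctnna1 had a log2 fold change of -0.02, and beta-catenin (Ctnnb1), with 2754 to 2855 CPM in the controls and 2526 to 2678 CPM in the mutants, one of -0.11 (edgeR adjusted p = 0.874 and 0.228). Clstn2, a calsyntenin, rose (log2 fold change 1.43, edgeR adjusted p = 0.0375), with K14J28 within the control range. Its log2 fold change was 0.94 without K14J26 and turned to -0.061 with the enamel score as a covariate. Dchs1, an atypical cadherin of the Fat pathway, and Cadm3, a nectin-like molecule, fell (-0.46 and -0.51, edgeR adjusted p = 0.0268 and 0.0222).

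Transcription factors that repress Cdh1 or accompany its loss were lower in the mutants in 5 of 7 cases (71.4%, against 6.61% of all genes), with a median log2 fold change of -0.40. Zeb2 and Snai3 did not pass the test, with log2 fold changes of 0.02 and 1.13 (edgeR adjusted p = 0.914 and 0.194), and Snai3 had at most 1.87 CPM. Snai1 had 18.2, 17.0, 15.7 and 17.4 CPM in the controls and 12.1, 13.8, 11.5 and 12.7 CPM in the mutants (log2 fold change -0.45, edgeR adjusted p = 0.0170). Snai2, Zeb1, Twist1 and Twist2 fell by 0.54, 0.40, 0.33 and 0.73 on the log2 scale (edgeR adjusted p = 0.0268, 0.0421, 0.0364 and 0.0313). For all 5, the groups did not overlap. With 1 embryo left out, the adjusted p stayed under 0.05 in 5 of 8 fits for Snai1 and Twist2. It did so in 3 for Snai2 and Twist1 and in 2 for Zeb1. With the enamel or skeletal muscle score as a covariate, 0 partner genes were called lower, with 112 and 47 of all genes. Without J3, J7 or K14J29, 0 partner genes were called lower as well, with 287, 236 and 170 of all genes. The list was chosen with earlier results of these data known. These factors are mostly expressed in mesenchyme, and beside them 3 of 8 dental mesenchyme markers were higher and 2 lower. Of 4 odontoblast markers 3 were higher and 0 lower, and of 4 bone markers 2 were higher and 0 lower. Col1a1 stands in both the mesenchyme and the odontoblast list. The part of tissue make-up in these values was not tested. Of 10 factors that promote epithelial identity, such as Grhl2, Ovol1, Esrp1 and Trp63, 0 passed the edgeR test at an adjusted p under 0.05 and 2 had an unadjusted p under it, Trp63 and Klf5, with log2 fold changes of 0.21 and 0.40. DESeq2 called 1, Trp63, higher. Among all 17129 genes, 3275 were higher and 2696 lower at an unadjusted p under 0.05 in edgeR.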

How the data were processed

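Lower first molars of 8 mouse embryos at E18.5 were sequenced with single-end RNA-seq from poly(A) libraries of a kit that does not mark strand. Reads were trimmed (Trimmomatic) and mapped to GRCm38 (STAR), and the authors deposited 1 table of raw counts per embryo; the study's methods name GenomicRanges for the counting, whereas the submitters' processing notes list featureCounts, with GRCm38.p3, and which of them made the tables was not settled. Which Ensembl release served, whether multiply mapped reads counted and whether strand was used are not given in the sources used here. These deposited counts are not normalized.

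Symbols and positions came from GENCODE M21, which holds 42548 of the 43629 identifiers, and promoter windows from RefSeq. A gene was kept if 2 or more embryos of either group had 10 or more counts, which held for 17129. edgeR 4.0.16 (R 4.3.3) was run with TMM factors and its quasi-likelihood test, 4 mutant against 4 control embryos without covariates, with Benjamini-Hochberg adjustment over all of them. CPM are counts scaled to the TMM library size, and CPM per kb divides these by the summed exon length. Standard errors were derived from the F statistic. The p-values set the difference between the groups against the spread between embryos. Alternatives were other scalings, other count filters, DESeq2 1.42.0, covariates (enamel, epithelial and skeletal muscle scores, Xist), and each embryo left out. Values per embryo were given for genes with an adjusted p under 0.05 or past the study's criteria and for the most abundant of each family, and of the partner genes those with an adjusted p under 0.05 were named, by rule up to the 4 largest changes per list, to which Twist1 was added. Further genes were described by values that stood out. The members and lists were chosen with earlier results of these data known. Depth ranged from 17327224 to 29792467 counts.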

Additional observations from a re-analysis of the deposited data

Results flagged for a closer look

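In each group of 4 embryos, an embryo was singled out where its gap to the nearest other value, over the whole range of the group, exceeded Dixon's critical value. Chance alone does this in about 1 group in 20, and it was seen in 7 of 74 groups. K14J28 held 2 of these values, Dsc1 at 6.32 CPM and Dsg3 at 37.5 CPM, both above the other mutants. K14J30 was lowest among the mutants for Cdh13 (15.1 CPM) and for Cdh5 (51.5 CPM). In the control J6, Dsg3 (18.1 CPM) and Jup (166 CPM) were above the other controls, by little in absolute terms, and in J3, Cdh18 (2.77 CPM) was below them.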

How the results depend on the processing

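For the 5 members called, Cdh4 and the 9 partners called, 300 log2 fold changes were computed over the alternatives, and 115 of them lost an adjusted p under 0.05 and 1 reversed: Clstn2 was -0.061 with the enamel score as a covariate. The 300 include the values of Cdh4, which had no call to lose (edgeR adjusted p = 0.0524 in the main fit). None of the 120 such values with 1 embryo left out reversed. Among all 37 members, 12 changed sign with the enamel score as a covariate, and Dsc1, which did not pass the test, changed sign without K14J28 (-0.92). The counts of calls moved more. The same 5 members were called with RLE scaling, with filterByExpr and with the epithelial score as a covariate. Scaling by library size only left 1 member higher, and DESeq2 gave 6 higher and 4 lower, adding Cdh1, Cdh4, Perp, Cdh5 and Dsg2. Without the count filter, Cdh1 was added to the calls, and 2 members, Dsc3 and Cdh8, were lower by the criteria of the study. The enamel score as a covariate left 1 member higher (Dsc1) and 0 lower, and 0 partners in either direction. In that fit, 186 of all 17129 genes were higher and 112 lower. The skeletal muscle score left 0 members and 0 partners at an adjusted p under 0.05 in either direction, and 0 members lower by the criteria of the study, although the log2 fold changes of the 5 members called kept their size (0.83 for Cdh23, 0.62 for Dsg1a, 0.42 for Dsg1b, -0.49 for Dsc3 and -0.36 for Nectin2). With that score, 47 of all 17129 genes were higher and 47 lower. The epithelial score left 0 partners higher. With Xist, Dsg1a (adjusted p = 0.145) and Nectin2 (0.0509) were no longer called, Cdh1, Pkp3 and Dsc2 were added, and the criteria of the study gave 5 members higher and 4 lower, and 3 partners were lower. With 1 embryo left out, members higher ranged from 0 (without K14J29) to 7 (without K14J28) and members lower from 0 (without J3, J7 or K14J29) to 5 (without K14J28). By the criteria of the study, members higher ranged from 3 to 5 and lower from 0 to 2. At an adjusted p under 0.05, partners ranged from 0 to 3 higher and 0 to 10 lower (both highest without K14J28). Without K14J29, 250 genes were higher and 170 lower of all tested, against 1631 and 1133 with all embryos. These counts were 373 and 287 without J3, and 300 and 236 without J7. Without K14J28, 2479 were higher and 1845 lower, and DESeq2 with all embryos gave 2244 and 1718. In alternatives chosen after seeing the data, leaving out K14J26 and K14J28 gave 6 members higher and 7 lower, with 2347 and 1803 of all 16795 genes. Leaving out J6 and J7 gave 0 members and 0 partners in either direction, with 3 and 4 of all genes. The cause of these shifts was not tested. No paired analysis was possible because the groups share no replicate numbers. Genes under 3 counts in an embryo cannot be told from 0.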
